A study of Mus musculus with 8 samples.

Results

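The genes described here are 6 sarcomere genes tied to muscle that is forming or regenerating: the myosin heavy chains Myh3 and Myh8, the actins Actc1 and Acta1, the light chain Myl4 and the troponin T gene Tnnt2. They were chosen by symbol and are 6 of the 12393 genes that the arrays measured with a named probe set. A probe set is a group of short array probes for one transcript, and where a gene had several, the set with the highest mean over the 8 arrays stood for it. The 6 genes have 8 probe sets in all. The study took RNA from 6 primary soft tissue sarcomas and 2 normal muscles of mice and measured it on Affymetrix arrays, with sarcoma against muscle as the stated comparison. Each value is a log2 level, so a difference of 1 is a doubling.

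Every mouse carried p53 Fl/Fl, a p53 gene flanked by loxP sites, and a conditional Braf allele written Ca. Of the sarcomas, 4 were Braf Ca/Ca; p53 Fl/Fl and are numbered 1, 2, 3 and 5, and 2 were Braf Ca/+; p53 Fl/Fl and are numbered 1 and 2. All tumours arose after injection of an adenovirus carrying Cre recombinase, the enzyme that recombines both alleles in the cells it reaches. The muscles, 1 of each Braf genotype, came from a hind limb that bore no tumour. The sources used here give no age of the mice. Nothing in the labels ties each array to its own animal, so a p-value measures only the spread among these arrays, part of which may be technical. In bulk tissue, fewer muscle cells and less RNA per muscle cell cannot be told apart.

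A muscle fibre contracts through filaments of myosin and actin, with troponin and tropomyosin setting when the filaments may bind. Fibres change the isoforms they build as they mature: embryonic and perinatal myosin, cardiac actin, the embryonic light chain and cardiac troponin T come first and give way to adult fast or slow forms. They return when a fibre regenerates, and pathologists stain for some of them to recognise skeletal muscle differentiation in a tumour.

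None of the 6 genes was called higher in the sarcomas. Actc1 and Acta1, abundant in muscle, fell, Myh3 and Myh8 read lower at the dim end of the arrays, and Myl4 and Tnnt2 did not pass the test. In limma, with an adjusted p under 0.05 over all 12393 genes as the threshold, 4 of 6 were called lower and 0 higher. Over all genes, 13.2% were called lower and 13.1% higher, with a median difference of 0.03. The median of the 6 differences was -0.88.

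The label of the group was checked against the muscles first. Acta1 is the main sarcomeric actin of adult fibres as well as of new ones, and it lay at or above percentile 99.9 of all genes in both muscles. Actc1, usually counted as a fetal isoform in skeletal muscle, lay at percentiles 94.5 and 97.0 there. Embryonic fibre isoforms is therefore a loose name for these 2 actins, and they are called the actins below. The other 4 genes were not prominent in either tissue.

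A dim probe set has a background signal below which a level says nothing of the transcript. The top of that range was taken as 5.14, the 90th percentile of the values of 27 genes of organs that were not sampled, such as milk, sperm and eye genes. A value at or under it is called at the floor. Of the 48 values of the 6 genes on the 8 arrays, 27 were at the floor. All 8 arrays were there for Myh3 and for Myh8, and the sarcomas were there for part of the others: 5 of 6 for Tnnt2, 4 of 6 for Actc1, and 0 of 6 for Myl4 and for Acta1. These counts depend on the limit. With the 2 expressed floor genes left out it was 4.89, and Actc1 had 3 of 6 sarcomas at the floor. With the 25th percentile of all genes, 4.31, Actc1 had 1 of 6. Tnnt2 then had 3 of 6 sarcomas and 0 of 2 muscles there, and Myh3 1 of 2 muscles.

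**Figure D1:**
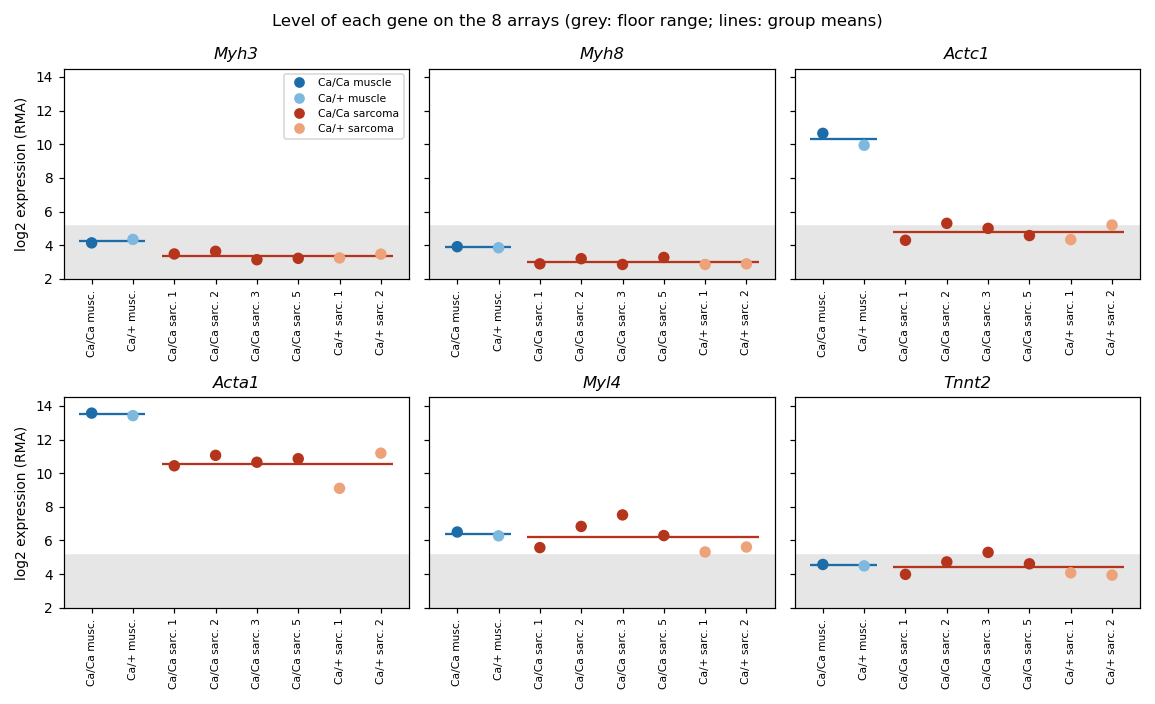
Log2 expression (vertical axis) of the 6 genes on each of the 8 arrays, with 1 point per array coloured by tissue and Braf genotype, horizontal lines at the muscle and sarcoma means, and the floor range up to 5.14 in grey. Actc1 drops from about 10 into or next to the grey range, Acta1 stays above 9 in all 6 sarcomas, and Myh3 and Myh8 lie in the grey range on every array.

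Myh3 encodes the embryonic myosin heavy chain, the motor of the first fibres and of regenerating ones. The Ca/Ca muscle had a level of 4.14 and the Ca/+ muscle 4.35. In the Ca/Ca sarcomas 1, 2, 3 and 5 it was 3.48, 3.64, 3.14 and 3.22, and in the Ca/+ sarcomas 1 and 2 it was 3.24 and 3.47. Every sarcoma lay under both muscles, and the groups did not overlap, yet all 8 values were at the floor. The sarcoma mean was 3.37 ± 0.19 (SD, n = 6) and the muscle mean 4.24 ± 0.15 (SD, n = 2), a difference of -0.88 (SE 0.16, limma adjusted p = 0.0057). Without the Ca/+ muscle the difference was -0.77 and no longer passed (limma adjusted p = 0.0745).

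Myh8, the perinatal myosin heavy chain that follows Myh3 in development, gave nearly the same picture. The Ca/Ca muscle stood at 3.91 and the Ca/+ muscle at 3.85. The Ca/Ca sarcomas 1, 2, 3 and 5 read 2.89, 3.20, 2.86 and 3.27, and the Ca/+ sarcomas 1 and 2 read 2.86 and 2.89. The highest sarcoma was below the lower muscle, again with all 8 arrays at the floor. The means were 3.00 ± 0.19 (SD, n = 6) and 3.88 ± 0.05 (SD, n = 2), a difference of -0.89 (SE 0.16, limma adjusted p = 0.0046). Both calls were lost when each array was centred on housekeeping genes, with adjusted p = 0.145 for Myh3 and 0.109 for Myh8 in limma. The differences were then -0.85 for each. Of the 11 housekeeping genes, 4 were themselves called higher in sarcoma and 1 lower. Both calls were kept under cyclic loess (limma adjusted p = 0.0101 and 0.00539) and quantile normalization (0.0102 and 0.00608).

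No fold change is given for the 2 heavy chains, because both tissues were at the floor. Of the 4097 genes with a mean over the 8 arrays at or under the floor limit, 421 (10.3%) were called lower and 60 (1.46%) higher. With 6 sarcomas among the 8 arrays, that mean keeps genes high only in muscle more readily than genes high only in sarcoma. The 2 shares therefore cannot say which way dim genes lean. Of the 27 floor genes, 25 had a mean of 6 or less in each tissue, and 20 were at the floor on all 8 arrays. Of the 25, 16 read lower in sarcoma and 1 was called lower, the insulin gene Ins2 at -0.55 (limma adjusted p = 0.00746). The Ins2 call was lost without the Ca/+ muscle, where the difference was -0.51. The differences of the 25 ran from -0.63 to 0.91, with a median of -0.05, so none was as low as that of Myh3 or Myh8. Myh3 and Myh8 lie in one gene cluster on chromosome 11, where RefSeq (GRCm38.p6) orders the genes as Myh3, Myh2, Myh1, Myh4, Myh8 and Myh13. The adult chains of that cluster have related sequences, and the 3 measured, Myh1, Myh2 and Myh4, were each higher in muscle than in every sarcoma. Their part in the signal of the Myh3 and Myh8 probes was not tested.

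The other striated myosin heavy chains were read beside Myh3 and Myh8. All 5 that were measured were called lower in sarcoma, with a median difference of -3.76. Myh4, the fast IIb chain, had a mean of 13.22 in muscle and 8.58 in sarcoma, a difference of -4.64 (SE 0.64, limma adjusted p = 0.00158). Myh2, the IIa chain, differed by -4.99 and Myh1, the IIx chain, by -3.76. Myh7, the slow chain, differed by -2.53, or by -1.65 without the Ca/+ muscle, while Myh6, a heart chain, differed by -0.48 between values that were all at the floor. For Myh1, Myh2, Myh4 and Myh7 the 95% interval of the difference lay wholly below those of Myh3 and Myh8. But Myh3 and Myh8 were at the floor in muscle too, where a fall of that size could not be read. The intervals therefore cannot say whether these 2 chains fell less.

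The 2 actins are shown with the sequence just before their RefSeq start sites, because they were the genes of the group with a clear muscle signal and a fall in the sarcomas. The lines give the 250 bases before the start, 5′ to 3′ on the gene's strand, from RefSeq on GRCm38.p6. That of Actc1 is chr2:114052876-114053125 and that of Acta1 is chr8:123894776-123895025, both on the minus strand. Capitals mark the CArG box, the site that serum response factor binds, the MCAT core CATTCC, bound by TEAD factors, and the letters TATAAA of the TATA box.
Actc1: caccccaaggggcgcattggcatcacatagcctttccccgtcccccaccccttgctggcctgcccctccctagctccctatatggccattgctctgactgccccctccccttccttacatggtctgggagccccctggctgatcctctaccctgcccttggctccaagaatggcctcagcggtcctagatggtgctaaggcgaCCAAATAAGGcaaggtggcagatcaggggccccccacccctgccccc
Acta1: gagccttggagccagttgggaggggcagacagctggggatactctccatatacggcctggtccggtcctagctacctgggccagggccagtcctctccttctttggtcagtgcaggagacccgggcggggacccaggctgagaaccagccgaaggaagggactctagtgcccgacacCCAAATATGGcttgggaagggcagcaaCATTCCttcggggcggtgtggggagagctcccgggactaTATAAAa
Both windows held 1 CArG box, at bases -47 to -38 in Actc1 and -73 to -64 in Acta1, counted back from the start. A CArG box was present in 1.47% of the 32851 RefSeq promoter windows of this length. Acta1 also had an MCAT core at -46 to -41, TATAAA at -7 to -2 and 2 E-boxes, the CANNTG site of the MyoD family, left in lower case here. The other shares were 12.6% for CATTCC, 12.4% for TATAAA, 66.2% for CANNTG and 0.508% for the MEF2 site. Both strands were searched, and no marked motif overlapped another. In the other windows, Myh3 had 1 E-box and TATAAA at -29 to -24, Myh8 had 1 E-box and TATAAA on the opposite strand at -96 to -91, and Myl4 had none of the 5 motifs. Tnnt2 had 2 windows: the first held 4 E-boxes and CATTCC at -27 to -22, and the second held 1 E-box. No window of the 6 genes held a MEF2 site. A match describes letters in a window and no binding was measured.

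Actc1 encodes cardiac alpha-actin, the actin of the heart and of fetal skeletal fibres. The Ca/Ca muscle had a level of 10.65 and the Ca/+ muscle 9.94. The Ca/Ca sarcomas 1, 2, 3 and 5 had 4.29, 5.30, 5.00 and 4.57, and the Ca/+ sarcomas 1 and 2 had 4.33 and 5.20. All 6 sarcomas were far below both muscles, and only Ca/Ca sarcoma 2 and Ca/+ sarcoma 2 rose above the floor, narrowly. The mean fell from 10.30 ± 0.50 (SD, n = 2) to 4.78 ± 0.44 (SD, n = 6), a difference of -5.51 (SE 0.33, 95% interval -6.26 to -4.76, limma adjusted p = 2.22e-05). With each sarcoma counted at its own value or at the floor limit, whichever was higher, Actc1 was 34.7-fold lower in sarcoma by the group means. That value allows for the floor but not for the spread among the arrays. Its difference was the most negative of the 6 genes.

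Acta1, the skeletal alpha-actin of the thin filament, fell but stayed abundant. The Ca/Ca muscle reached 13.57 and the Ca/+ muscle 13.42. The Ca/Ca sarcomas 1, 2, 3 and 5 read 10.44, 11.06, 10.65 and 10.86, and the Ca/+ sarcomas 1 and 2 read 9.10 and 11.19. The tumours lay between percentiles 88.3 and 98.4 of all genes, so the transcript was well above the floor in each. The means were 10.55 ± 0.76 (SD, n = 6) and 13.50 ± 0.10 (SD, n = 2), 7.70-fold lower in sarcoma (log2 difference -2.94, SE 0.49, 95% interval -4.07 to -1.82, limma adjusted p = 0.0036). The muscle values were among the highest on the arrays, and whether saturation limits them was not tested. Ca/+ sarcoma 1 stood apart at 9.10; without it the difference was -2.65 (limma adjusted p = 0.000294). With the Ca/+ arrays alone, 2 sarcomas and 1 muscle, the difference was -3.27 and did not pass (limma adjusted p = 0.129).

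Adult fibre genes were read beside Acta1 in each tumour. The mean level of 9 adult skeletal fibre markers, taken without Acta1, was 12.10 and 12.32 in the muscles and between 6.74 and 8.81 in the sarcomas. Its lowest value, 6.74, was that of Ca/+ sarcoma 1, the tumour with the lowest Acta1, and its highest, 8.81, that of Ca/Ca sarcoma 2. In the sarcomas, 7 of the 9 were above the floor in all 6 tumours, while Myh2 was in 3 and Myh7 in 1. How much of the Acta1 signal came with adjacent or enclosed muscle was not tested.

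Myl4 encodes the embryonic and atrial essential light chain, which clasps the neck of the myosin motor. The Ca/Ca muscle had 6.50 and the Ca/+ muscle 6.28. The Ca/Ca sarcomas 1, 2, 3 and 5 had 5.58, 6.83, 7.52 and 6.29, and the Ca/+ sarcomas 1 and 2 had 5.32 and 5.61. The groups overlapped: Ca/Ca sarcomas 2 and 3 were above both muscles, Ca/Ca sarcoma 5 lay between them, and the other 3 were below. The difference of means was -0.20 (SE 0.55, 95% interval -1.46 to 1.06, limma adjusted p = 0.834), an interval that spans a fall or a rise by a doubling. Myl4 was the only one of the 6 genes, beside Acta1, that stood above the floor on all 8 arrays.

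Tnnt2 encodes cardiac troponin T, which anchors the troponin complex to tropomyosin and is made by early skeletal fibres. The Ca/Ca muscle read 4.57 and the Ca/+ muscle 4.49. The Ca/Ca sarcomas 1, 2, 3 and 5 read 3.99, 4.73, 5.29 and 4.61, and the Ca/+ sarcomas 1 and 2 read 4.08 and 3.94. Ca/Ca sarcoma 3 alone exceeded the floor limit, by a narrow margin, and the muscles fell within the range of the sarcomas. The difference was -0.09 (SE 0.35, 95% interval -0.90 to 0.71, limma adjusted p = 0.879). Ca/Ca sarcoma 3 was the highest tumour for Myl4 too. The other Tnnt2 values were at the floor, so their order is only a description. Ca/Ca sarcomas 3, 2 and 5 were the highest tumours, in that order, for Tnnt2 and for Myl4.

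Myl4 and Tnnt2 each had a second probe set, and these were fitted among all 22626 probe sets, of which 11.7% were called lower. The second Myl4 set, 1457126_at, was 4.35 and 4.68 in the muscles and between 3.79 and 4.35 in the sarcomas, at the floor on all arrays. It differed by -0.42 (limma adjusted p = 0.103). Ca/Ca sarcomas 3 and 2 were the highest tumours in this set too, at 4.35 and 4.19, but below the 4.68 of the Ca/+ muscle. That these tumours exceeded both muscles in Myl4 therefore rests on 1422580_at alone. The second Tnnt2 set, 1418726_a_at, was 3.75 and 3.82 in the muscles, and between 2.79 and 4.53 in the sarcomas, at the floor on all arrays. It differed by -0.21 (limma adjusted p = 0.784). Its highest tumours were again Ca/Ca sarcomas 3, 2 and 5, at 4.53, 4.21 and 3.65, all under the floor limit. Whether the 2 Tnnt2 sets share probes was not tested. The Tnnt2 set used in the main fit, 1424967_x_at, carries the x suffix that Affymetrix gives to sets with probes that can match other transcripts.

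**Figure D2:**
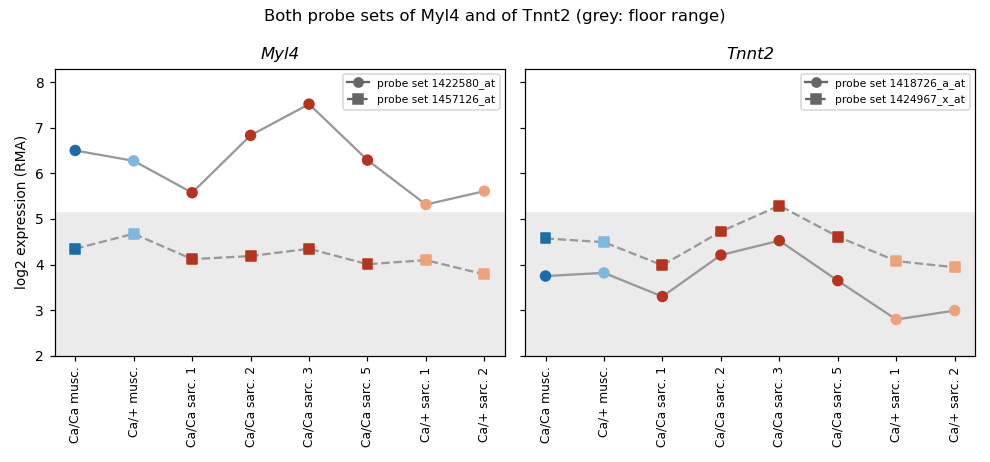
Log2 expression (vertical axis) from both probe sets of Myl4 and of Tnnt2 on each array, 1 point per array in the tissue and genotype colours used for the levels, with lines joining the points of a set and the floor range in grey. The Myl4 set 1422580_at peaks at 7.52 in Ca/Ca sarcoma 3 while the set 1457126_at stays in the grey range, as do both Tnnt2 sets apart from 1 point.

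The adult partners of the light chain and of troponin T fell strongly. Myl1, the fast essential light chain, differed by -4.03 and Mylpf, the fast regulatory light chain, by -4.33. Tnnt3, the fast skeletal troponin T, differed by -4.59 and Tnnt1, the slow form, by -2.45, all with adjusted p under 0.05 in limma. Without the Ca/+ muscle the Tnnt1 difference was -1.65 and did not pass (limma adjusted p = 0.0922). Among 13 adult light chains, troponins and tropomyosins, 11 fell, 1 rose and 1 did not pass, with a median of -3.07. The one that rose was Tpm3, a tropomyosin gene also used by non-muscle cells, at 1.12 (limma adjusted p = 0.00266). Against this background Myl4 and Tnnt2 were genes with no called change.

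**Figure D3:**
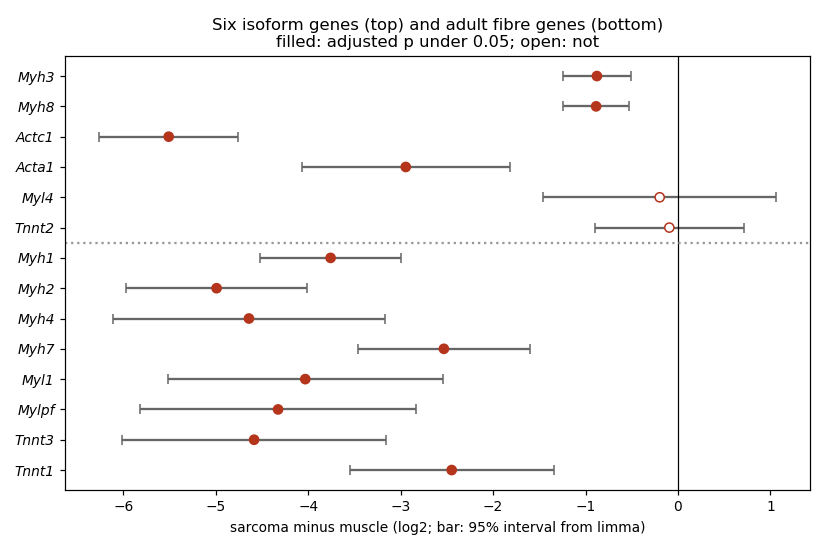
Difference in log2 level, sarcoma minus muscle (horizontal axis), with its 95% interval from limma, for the 6 genes above the dotted line and 8 adult fibre genes below it; filled points passed an adjusted p of 0.05. All 8 adult genes lie at or left of -2.45, while Myl4 and Tnnt2 straddle 0.

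Within each array, the isoform was also set against its adult partner as a log ratio, which removes a scaling shared by both probe sets. A change in that ratio shows unequal change only. The Myl4 over Myl1 ratio was higher in all 6 sarcomas than in both muscles, by 3.83 on average, with tumour values from 2.52 in Ca/+ sarcoma 2 to 4.71 in Ca/+ sarcoma 1 relative to the muscle mean. The Actc1 over Acta1 ratio was lower in all 6, by -2.56. With Actc1 held at the floor limit where it was below it, the change was -2.17, again lower in all 6; this setting was chosen after seeing the data. The Myh3 over Myh4 ratio differed by 3.76, that of Myh8 over Myh4 by 3.76 and that of Tnnt2 over Tnnt3 by 4.49. In these last 3 the isoform was at the floor on every array, apart from Tnnt2 in Ca/Ca sarcoma 3. These ratios therefore mirror mainly the fall of the adult partner. In Myl4 over Myl1 the means differed by -0.20 for Myl4, which was not called, and by -4.03 for Myl1. That ratio too mirrors mainly the fall of the adult partner. For each of the 5 ratios the two-sided exact permutation test over the 28 assignments of the arrays gave p = 0.0357, the smallest that 6 against 2 arrays allow, and 0.0357 after Benjamini-Hochberg adjustment over the 5.

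**Figure D4:**
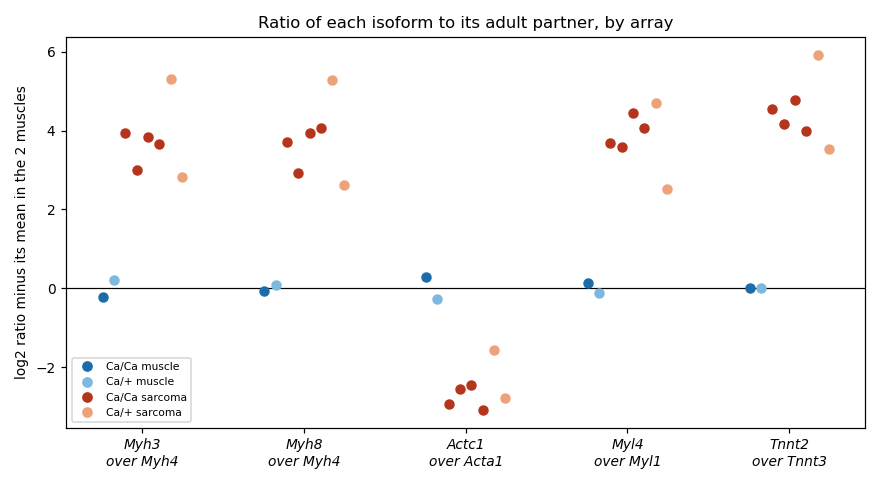
Log2 ratio of each isoform to its adult partner on each array, minus the mean of that ratio in the 2 muscles (vertical axis), with 1 point per array coloured by tissue and Braf genotype. The sarcomas lie above 2.5 for 4 of the ratios and below -1.5 for Actc1 over Acta1, and Ca/+ sarcoma 1 is the highest tumour in all 5.

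The Braf genotypes of the sarcomas were compared next, 4 Ca/Ca against 2 Ca/+ tumours. None of the 6 genes passed, nor did any of the 12393 genes (0%) in limma, where 971 genes had an unadjusted p under 0.05 and none of the 6 was among them. The largest estimate was for Myl4, with means of 6.56 ± 0.82 (SD, n = 4) in Ca/Ca and 5.46 ± 0.21 (SD, n = 2) in Ca/+ tumours. The difference was 1.09 (95% interval -0.15 to 2.33, limma adjusted p = 0.656). Tnnt2 came next with 0.65 (95% interval -0.18 to 1.47, limma adjusted p = 0.677). Ca/Ca sarcoma 1 had a Myl4 level of 5.58, below the 5.61 of Ca/+ sarcoma 2, so the genotypes overlapped.

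The other 4 genes showed smaller estimates or wide intervals. Acta1 differed by 0.60 (95% interval -0.72 to 1.93, limma adjusted p = 0.779), but by -0.44 without Ca/+ sarcoma 1 and by 1.65 without Ca/+ sarcoma 2. Actc1 differed by 0.02 (95% interval -0.85 to 0.90), Myh3 by 0.01 (95% interval -0.44 to 0.47) and Myh8 by 0.18 (95% interval -0.23 to 0.60). With 2 tumours on one side these intervals still hold differences of nearly a doubling for Actc1 and more for Acta1.

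Whether the sarcoma difference depended on genotype was tested as an interaction in limma, with each lone muscle assumed to vary like the sarcomas. It called 1 gene of 12393 (0.00807%), not one of the 6, whose adjusted p ranged from 0.921 for Actc1 to 0.972 for Myh8. For Acta1 the sarcoma minus muscle difference was -2.82 in Ca/Ca and -3.27 in Ca/+ arrays, and for Actc1 it was -5.86 and -5.17. Myl4 differed by 0.05 in Ca/Ca and by -0.81 in Ca/+ arrays. The 2 muscles themselves, with 1 array each and no test, were 0.71 apart for Actc1 (Ca/Ca higher), and 0.23 or less apart for the other 5 genes.

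Among genes that drive or accompany new fibres, none of the regulators rose, and the others went both ways. Of 13 myogenic regulators and fusion genes, 9 were called lower, 0 higher and 4 did not pass, with a median of -0.73. Of the 9, Myf5, Pax7 and Pax3 were at the floor on all 8 arrays, which leaves 6 that fell. Of these, Myod1 and Myog were at the floor in all 6 sarcomas, so the size of their falls was not measured. The largest differences were those of Myf6 (-3.53), a regulator kept in mature fibres, and Myod1 (-2.46), the regulator that commits cells to muscle. Mef2c (-2.41), the partner of Myod1 in switching on sarcomere genes, came next. The Mef2c call was lost without either muscle, at -2.28 without the Ca/Ca and -2.54 without the Ca/+ muscle. Of 14 other genes of regenerating or immature fibres, 3 were called lower, 2 higher and 9 did not pass, with a median of -0.26; Myl6b, 1 of the 3, was at the floor on all arrays. Desmin (Des) fell by 3.39 and Csrp3, a Z-disc protein, by 3.22, whereas Ncam1, a cell adhesion molecule also made by many other cells, rose by 2.84 (limma adjusted p = 0.0367). Vimentin (Vim), the intermediate filament of immature fibres and of mesenchymal cells, rose by 1.05. Without the Ca/+ muscle, as an alternative added after seeing the data, the differences were -0.99 for Csrp3, 1.73 for Ncam1 and 0.74 for Vim, and none of the 3 passed in limma (adjusted p = 0.398, 0.347 and 0.191). The Csrp3 call was also lost without any 1 of the 6 sarcomas, and the Ncam1 call without sarcoma 1 or 2 of either genotype. The Csrp3 level of the Ca/Ca muscle, 7.15, was within the range of the sarcomas. Chrna1, a subunit of the acetylcholine receptor, differed by 2.06 and did not pass (limma adjusted p = 0.0782).

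Markers of other tissues that use some of these isoforms were read beside them. Of 11 heart markers, 4 were called lower and 7 did not pass, with a median of -0.34. On all 8 arrays 9 of the 11 were at the floor, among them Myh6, Nppa and Myl7 and 3 of the 4 called (Myh6, Pln and Tbx5), and the mean of the list was 4.06 and 4.25 in the muscles and 3.37 to 3.87 in the sarcomas. The fourth called was Myl2 (-4.03), which slow skeletal fibres share with the heart. Nppb went the other way, by 1.31, and did not pass (limma adjusted p = 0.37). It ran from 4.12 to 7.64 in the sarcomas, against 5.235 in the Ca/Ca and 3.957 in the Ca/+ muscle. Of 10 smooth muscle and myofibroblast markers, 5 fell and 5 did not pass, with a median of -1.30, led by Synpo2 (-3.82), Des and Myh11 (-3.39). For Synpo2 and Myh11 all 6 sarcomas were at the floor, so the size of those falls was not measured. Tagln, Acta2 and Cnn1 did not pass and varied widely. Tagln ran from 6.06 to 11.31 in the sarcomas, against 9.49 and 9.29 in the muscles. Acta2 ran from 7.11 to 11.34 (muscles 10.19 and 10.01) and Cnn1 from 3.61 to 6.65 (muscles 5.60 and 5.15). The mean of the 10 markers was 7.54 and 7.31 in the muscles and 5.01 to 6.14 in the sarcomas. Of 6 red cell markers, 2 were called lower, Alas2 (-2.18) and Slc4a1 (-1.28), and 5, Slc4a1 among them, were at the floor on all arrays. The Alas2 call was lost without either muscle (limma adjusted p = 0.134 and 0.16). The part of these cell types in the levels of the 6 genes was not tested.

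Across the 6 sarcomas the genes whose levels ran most like each of the 6 were found by Pearson's r, given as a description over 6 arrays that share their processing. For Acta1 they were Dazap2 (r = 0.996), Foxl1 (0.994) and Ptp4a3 (0.989), and of these Ptp4a3 also fell in sarcoma, by 3.34. For Actc1 they were 2310011J03Rik (0.974), Rasgrf1 (0.974) and Stag2 (0.969). For Myl4 they were Asgr2 (0.993), Bola2 (0.989) and Snhg8 (0.988), and for Tnnt2 Slc22a7 (0.994), Hes2 (0.993) and Ntrk2 (0.992). For Myh3 they were Itpkb (0.987), Lypla2 (0.981) and Mapkapk2 (0.978), and for Myh8 Slc5a6 (0.999), Eif4b (0.993) and Atf7ip2 (0.984). Each is the highest of many values over few points, and none was tested. Those of Actc1, Myh3, Myh8 and Tnnt2 rest on levels at or near the floor, and Foxl1 beside Acta1 and Asgr2 beside Myl4 were at the floor in all 6 sarcomas.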

How the data were processed

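RNA from 8 mouse tissue samples, 6 sarcomas and 2 muscles, was measured on Affymetrix arrays. The deposited values are log2 expression per probe set that the authors obtained with RMA, per the submitters' processing notes; the RMA version and whether the arrays were processed together are not given in the sources used here. RMA gives the probe intensities of arrays processed together 1 distribution, so a change in total RNA is not measured. Array medians ran from 5.79 to 5.90. No 2 arrays shared more than 63 equal values over 22690 probe sets, and the number of arrays limits the precision.

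Control probe sets (64) were left out. Of the other 22626, the platform annotation gave 20380 a single symbol, 691 several and 1555 none here; only the first were named, with the set of the highest mean kept for each of 12393 genes. Differences were tested with limma 3.58.1 (lmFit and eBayes) in R 4.3.3, with Benjamini-Hochberg adjustment over all genes; the script was tested on simulated data. Ratios used an exact two-sided permutation test. Python 3.11.15 and matplotlib 3.10.9 did the rest. Named were the 6 genes, the adult partners, the 3 genes most like each of the 6, and of each gene list up to 3 called genes with the largest difference. Chrna1, Vim, Tpm3, Tbx5, Nppa, Nppb, Myl7, Ins2, Myf5, Pax7, Pax3, Myog, Myl6b, Tagln, Acta2, Cnn1 and the genes of the closing observations were named after their values were seen. The members and lists were chosen with earlier results of these data known. Alternatives were other probe sets per gene, scalings, filters on dim genes, variance models, subsets of arrays, adult partners and floors.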

Additional observations from a re-analysis of the deposited data

Results flagged for a closer look

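The Acta1 level of Ca/+ sarcoma 1, 9.10, stood apart from the other 5 sarcomas: its gap to the nearest tumour was 0.638 of the whole range of the 6, above Dixon's critical value at 95%. The other 5 lay between 10.44 and 11.19. The same tumour had the lowest mean of the adult fibre markers, 6.74. In all, 22 groups of values were examined this way, and chance alone sets apart about 1 in 20 groups.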

How the results depend on the processing

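For Actc1, the fall in sarcoma passed under all 19 alternatives (-5.86 to -5.16), and the 5 ratios kept their direction under all of theirs. Centring on housekeeping genes left 2 of the 6 genes lower: Myh3 (-0.85, limma adjusted p = 0.145) and Myh8 (-0.85, 0.109) no longer passed. Leaving out the dimmest 25% of genes left 2 lower and the dimmest 50% left 1, because the dim genes were no longer tested. Ca/Ca arrays alone left 2 lower, with Myh3 at -0.77 and Myh8 at -0.86 not passing and Myl4 (0.0525) and Tnnt2 (0.0801) with the opposite sign; Ca/+ arrays alone left 1, with Myh3 at -0.99, Myh8 at -0.97 and Acta1 at -3.27 not passing. These use fewer samples. Leaving out 1 array gave 3 to 4 genes lower, -0.98 to -0.77 for Myh3, whose call was lost without the Ca/+ muscle, and -0.264 to 0.00634 for Tnnt2, positive without Ca/+ sarcoma 2. Between genotypes, the Myh3 difference was -0.0565 under cyclic loess and -0.0828 under quantile normalization, and leaving out 1 array gave -0.10 to 0.13 for Myh3, -0.41 to 0.46 for Actc1 and -0.44 to 1.65 for Acta1; the cause was not tested. Cyclic loess made 64.5% of all called genes lower in sarcoma, against 50.1% as deposited. The floor count was 26 of 48 with 2 expressed floor genes left out, chosen after seeing the data, and 19 with the 25th percentile of all genes. Tumours 1 and 2 of each genotype share only a number (r of deviations 0.03 over 12393 genes); with that number as a replicate block, 0 genes were called, as without it, and Myl4 differed by 0.74.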

Other observations

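Some genes of the lists differed more between the 2 muscles than any of the 6 did. Csrp3, a Z-disc protein of slow and stressed fibres, read 7.15 in Ca/Ca muscle but 11.61 in Ca/+ muscle, against 5.23 to 7.16 in the sarcomas. Ncam1 was 6.55 and 4.33 and Chrna1 8.28 and 6.36 in the same muscles, both higher in the Ca/Ca one. Ankrd1 was 6.10 and 8.77, higher in the Ca/+ one. The SD over the 2 muscles was 1.25 for Myh7, the slow heavy chain, and 1.48 for Myl2, both higher in the Ca/+ muscle. It was 0.50 or less for each of the 6 genes. With 1 muscle per genotype, genotype and the single sample cannot be told apart.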
